A study of Homo sapiens with 21 samples.

Results

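JQ-1 is a small molecule that occupies the bromodomains of the BET proteins, among them BRD2 and BRD3. Its response is described here across all genes in SK-MEL-147, an established human melanoma cell line, from 3 libraries of JQ-1-treated cells and 3 of untreated cells, 6 of the 21 libraries of the series. The members were taken by their treatment labels, so no measured value chose them. The other 15 libraries come from the same line treated with TP-472, GSK-591, GSK-484, MS023 or UNC0642, inhibitors of other chromatin proteins, with 3 libraries each. They entered the estimate of the spread and are used below as a second reference. The labels give no dose, no time of treatment and no vehicle for the untreated cells. Both groups are the same line grown in the same medium with serum. The labels do not say that the 3 libraries of a group came from separate cultures, so the p-values measure the spread between these libraries, which may be technical.

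BET proteins read acetylated lysines on histone tails. They help to bring the elongation kinase P-TEFb to promoters and enhancers, and BET inhibitors are known for lowering genes that depend on strong enhancers, inflammatory genes among them. P-TEFb itself is held inactive by HEXIM1 in a complex with a small nuclear RNA, and a higher HEXIM1 transcript is a widely used sign of BET inhibitor action.

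The deposited values are expected counts per gene, which RSEM estimates and which need not be whole where reads fit several genes. The 6 libraries held 31635497 to 47741066 expected counts. Ribosomal RNA genes took 4.99 to 9.61% of them. Levels are given as CPM, the count of a gene relative to the library size, on library sizes scaled by TMM, a scaling that sets most genes to no change. The 3 untreated libraries differed from the JQ-1 libraries in how levels followed the GC content of the transcript: the slope was -0.19, -0.10 and -0.12 log2 CPM per 10 points of GC without treatment against 0.015, 0.016 and 0.02 with JQ-1, and untreated also lay below the other 15 treated libraries, which ran from -0.04 to 0.13. So the counts of calls, the families and the named genes were also fitted with this trend removed, and with the trend removed and the 15 other treated libraries as the reference. The level, structure and promoter classes were refitted with the trend removed only. The 4-fold counts, the runs of neighbours, the protocadherin and HOX clusters and the motif shares were not refitted.

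Most of the transcriptome moved. Of 15062 genes tested, 5377 rose and 5660 fell at an adjusted p under 0.05 (edgeR's quasi-likelihood test), which is 35.7% and 37.6% of the genes, or 73.3% together. The replicates were tight, with a common coefficient of variation of 5.09%, so small changes passed. The change was lopsided in size: 1026 genes (6.81%) rose and 1943 (12.9%) fell at least 2-fold. At 4-fold the counts were 155 higher (1.03%) and 763 lower (5.07%), and at 8-fold 42 higher (0.279%) and 289 lower (1.92%). The median log2 fold change of all genes was -0.01, with quartiles at -0.51 and 0.40. Of all calls, 48.7% were higher. When libraries were scaled by their total counts in place of TMM, that share was 37.3% and the median of all genes moved to -0.15, so changes are stated relative to the bulk of the genes. Fewer cells of a type and less RNA per cell cannot be told apart in bulk RNA. Of the calls, 4770 of the higher and 4933 of the lower genes were called the same way in all 3 fits; among the genes moved at least 2-fold these were 998 and 1892.

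**Figure D1:**
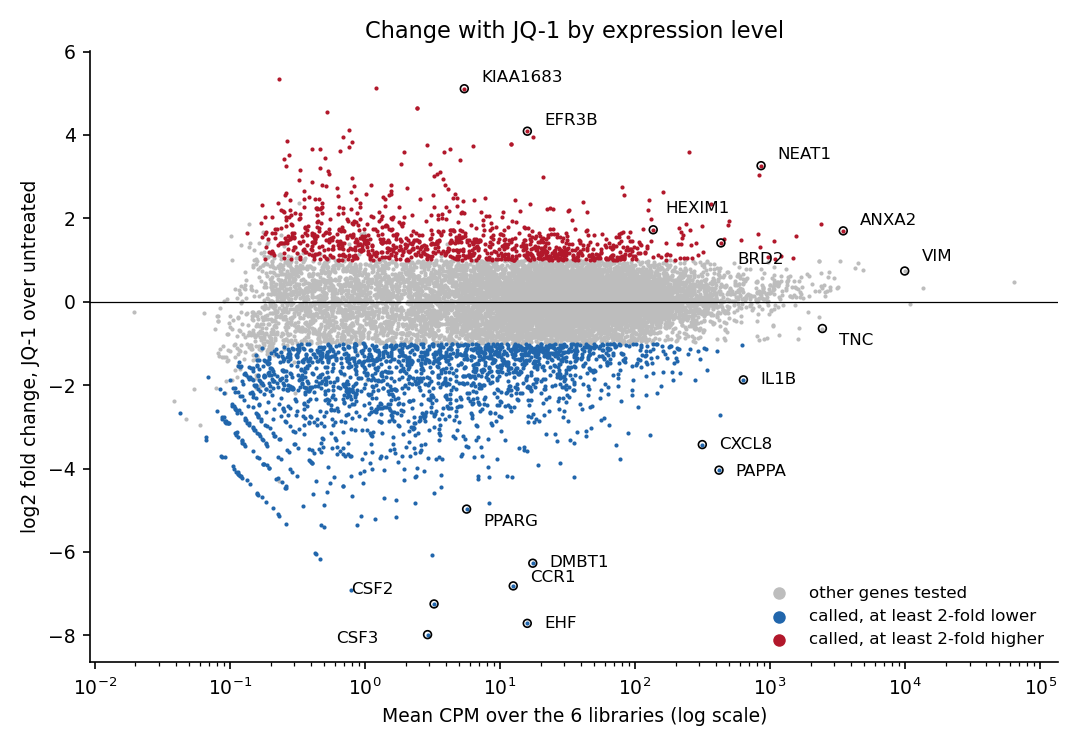
Each point is 1 of the genes tested, by its mean CPM over the 6 libraries (horizontal, log scale) and its log2 fold change, JQ-1 over untreated (vertical); blue and red mark the 1943 and 1026 genes called at least 2-fold lower and higher, and circles mark named genes. The 48 genes with no count in 1 of the groups are not drawn; the falls reach further from 0 than the rises, above all below 100 CPM.

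The 10 largest falls were ranked among called genes whose untreated mean reached 3 CPM and whose untreated and JQ-1 libraries did not overlap. They were in CSF3, EHF, CSF2, CCR1, DMBT1, MYPN, INPP5D, PPARG, GBP4 and GBP1. The level of EHF, an ETS factor of epithelial cells, was 33.5, 29.6 and 32.0 CPM in the untreated libraries and 0.248, 0.056 and 0.138 with JQ-1. CCR1, a chemokine receptor, stood at 23.3, 25.9 and 25.4 CPM without treatment and at 0.22, 0.224 and 0.206 with JQ-1. DMBT1, a secreted scavenger receptor, stood at 35.2, 37.3 and 31.2 against 0.661, 0.364 and 0.275 CPM. Separate groups were part of the rule of this list, so the separation in these 3 genes is no result. For CCR1 the log2 fold change was -6.81 ± 0.13 (SE, n = 3 per group; adjusted p = 7.38e-22, edgeR), and for DMBT1 it was -6.27 ± 0.15 (adjusted p = 2.16e-20, edgeR). The 15 other treated libraries kept CCR1 between 14.6 and 24.9 CPM and DMBT1 between 29.7 and 47.4 CPM.

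PPARG, the nuclear receptor that drives fat cell differentiation, was at 9.78, 12.2 and 11 CPM without treatment and at 0.468, 0.28 and 0.275 with JQ-1, a log2 fold change of -4.97 ± 0.15 (adjusted p = 2.79e-18, edgeR). GBP1, an interferon-induced GTPase, was at 16, 16.2 and 16.1 against 0.496, 0.588 and 0.619 CPM (log2 fold change -4.83 ± 0.10). MYPN, which encodes a sarcomere protein, went from 6.17 ± 0.67 to 0.09 ± 0.04 CPM, and INPP5D, the inositol phosphatase SHIP1 of blood cells, from 3.31 ± 0.21 to 0.09 ± 0.06 CPM (mean ± SD, n = 3). With the GC trend removed the log2 fold changes of PPARG and GBP1 were -4.92 and -4.71, and with the other treated libraries as the reference as well they were -5.05 and -4.73.

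A stricter class was near silence: at least 1 CPM on average without treatment and at most 0.1 CPM with JQ-1. It held 28 genes, 25 of them protein coding. CSF3, the cytokine G-CSF, held 721 counts without treatment and 2 with JQ-1. CSF2, the cytokine GM-CSF, held 815 counts in the untreated libraries together and 4 in those with JQ-1, so the levels differed 165-fold (exact binomial 95% interval from 64.1 to 606, counting error only). BDKRB2, the bradykinin B2 receptor, fell from 293 counts to 0, so it was at least 79-fold lower when 3 counts over the group are allowed. VNN1, a pantetheinase, went from 289 counts to 6, and KLHL14 from 197 to 1. CDCP1, a transmembrane substrate of Src kinases, went from 231 counts to 5, and SCN2A, a neuronal sodium channel, from 217 to 4. For 20 of the 28, each of the 15 other treated libraries kept at least 0.5 times the untreated mean. CDCP1, SCN2A, KLHL14, H3F3A and FSBP were named after their values were seen. SERF1A, H3F3A and FSBP also reached 0 counts. They have near-identical or overlapping genes that can share their reads, though only H3F3A was marked by counts that were not whole. The median of the 15 other treated libraries was 0 CPM for H3F3A and 0.088 CPM for FSBP. SERF1A was already at 0 in 1 untreated library, so the values of SERF1A, H3F3A and FSBP are uncertain.

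The reverse rule, at most 0.1 CPM without treatment and at least 1 CPM with JQ-1, was met by 6 genes. With the 15 other treated libraries as the reference it was met by 0 genes. With the GC trend removed as well, the rises stayed called in all but NARR (log2 fold change 0.90, adjusted p = 0.346, edgeR). The log2 fold changes in that fit were 3.86 for CGN, 3.61 for B3GALT1 and 2.93 for PLEKHA7. CGN, the tight junction protein cingulin, went from 8 counts to 240, B3GALT1, a galactosyltransferase, from 10 to 129, and PLEKHA7, a junction protein, from 5 to 102. CNFN, TMEM191B and NARR complete the class, and the values of TMEM191B and NARR are uncertain, since their reads are shared with other genes.

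The largest rises were ranked among genes with at least 3 CPM in the JQ-1 group whose untreated and JQ-1 libraries did not overlap. A low untreated level and separate groups are thus part of how they were picked. EFR3B, a membrane scaffold of a lipid kinase, was at 1.65, 1.98 and 1.70 CPM without treatment and at 31.1, 29 and 30.3 with JQ-1, a log2 fold change of 4.09 ± 0.14 (adjusted p = 2.03e-17, edgeR). ABCA3, a lipid transporter of lung surfactant, went from 0.38 ± 0.19 to 5.36 ± 0.16 CPM. DHRS2, a short-chain dehydrogenase, went from 0.61 ± 0.35 to 7.87 ± 0.29 CPM. KIAA1683 led the list at 0.30 ± 0.05 against 10.6 ± 0.46 CPM. The read-through locus TNFAIP8L2-SCNM1 also met the rule, at 0, 2.69 and 0.22 CPM against 9.89, 15 and 9.90 CPM. Its counts are split with its parent genes and it ran from 4.08 to 25.8 CPM in the other treated libraries, and against them its change took the opposite sign.

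The promoters of some of these genes differed in a feature that was read from the sequence and not used by the fit. The CG dinucleotide is rare in most of the genome and common in the CpG islands that mark promoters of broadly expressed genes. The 250 bases before the RefSeq start (GRCh38.p14) are shown for 3 genes of the deepest falls, for EFR3B from the largest rises, and for HEXIM1, with every CG in capitals; they were chosen after their values were seen.
EHF, chr11:34624007-34624256, plus strand: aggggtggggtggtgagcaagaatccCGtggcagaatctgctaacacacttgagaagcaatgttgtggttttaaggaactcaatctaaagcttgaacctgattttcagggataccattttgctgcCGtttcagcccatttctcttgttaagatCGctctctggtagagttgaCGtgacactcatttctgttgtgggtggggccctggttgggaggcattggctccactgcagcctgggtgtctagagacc
CSF2, chr5:132073539-132073788, plus strand: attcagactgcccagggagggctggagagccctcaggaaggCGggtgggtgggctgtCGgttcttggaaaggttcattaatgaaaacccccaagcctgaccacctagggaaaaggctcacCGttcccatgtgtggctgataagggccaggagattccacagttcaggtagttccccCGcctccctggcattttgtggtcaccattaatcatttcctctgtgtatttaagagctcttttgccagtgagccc
CCR1, chr3:46208314-46208563, minus strand: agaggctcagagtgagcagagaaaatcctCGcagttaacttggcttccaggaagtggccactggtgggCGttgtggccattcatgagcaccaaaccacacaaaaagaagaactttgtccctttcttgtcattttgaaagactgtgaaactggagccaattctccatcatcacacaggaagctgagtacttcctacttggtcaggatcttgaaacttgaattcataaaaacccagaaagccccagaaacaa
EFR3B, chr2:25041826-25042075, plus strand: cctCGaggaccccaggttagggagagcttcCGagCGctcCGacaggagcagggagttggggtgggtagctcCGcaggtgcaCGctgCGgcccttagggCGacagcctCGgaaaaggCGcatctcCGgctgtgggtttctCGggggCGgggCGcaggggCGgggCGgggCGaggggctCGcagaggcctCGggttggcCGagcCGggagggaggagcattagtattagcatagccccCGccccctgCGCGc
HEXIM1, chr17:45148225-45148474, plus strand: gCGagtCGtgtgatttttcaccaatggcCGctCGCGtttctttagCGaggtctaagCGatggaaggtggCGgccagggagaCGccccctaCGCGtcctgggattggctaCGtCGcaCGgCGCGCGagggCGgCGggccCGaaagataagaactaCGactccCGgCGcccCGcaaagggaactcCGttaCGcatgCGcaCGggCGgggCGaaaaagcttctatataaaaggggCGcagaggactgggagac
The windows of EHF, CSF2 and CCR1 held 4, 4 and 2 CG dinucleotides, and those of EFR3B and HEXIM1 held 24 and 31. The CpG ratio sets the observed CG count against that given by the C and G content. It was 0.263, 0.22 and 0.157 for the 3 genes that fell, against 0.79 and 1.3 for EFR3B and HEXIM1. The median ratio was 0.81 over all windows, 0.372 for genes at least 8-fold lower and 0.745 for genes at least 8-fold higher. So the largest rises as a class were not CpG-richer than all genes.

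Across 11688 tested genes with such a window, the share that fell at least 2-fold went down with the CpG ratio. It was 27.7% of 1539 genes with a ratio under 0.4, 18.8% at 0.4 to 0.6, 12% at 0.6 to 0.8, 7.19% at 0.8 to 1 and 5.89% of 1731 genes at 1 or above, beside 12% of all genes with a window. The share that rose at least 2-fold had no such order over all levels, at 7.6, 5.52, 6.32, 7.1 and 5.55%. Under 1 CPM per kilobase of exon it was 10.5 and 8.81% in the 2 CpG-poorest classes and 16 and 15.4% in the 2 richest. Genes with CpG-poor promoters were also lower expressed. The same order was seen within each level class, but the classes are wide and use the mean of the same 6 libraries. The part of level in it was not tested. Under 1 CPM per kilobase of exon, 36.1% of the CpG-poorest and 18.9% of the CpG-richest genes fell at least 2-fold. At 1 to 10 CPM per kilobase these shares were 21.9 and 5.89%, and at 10 or more they were 12.3 and 1.62%. With the GC trend removed, the shares over all levels were 28 and 5.43%. This split was added after the values were seen.

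**Figure D2:**
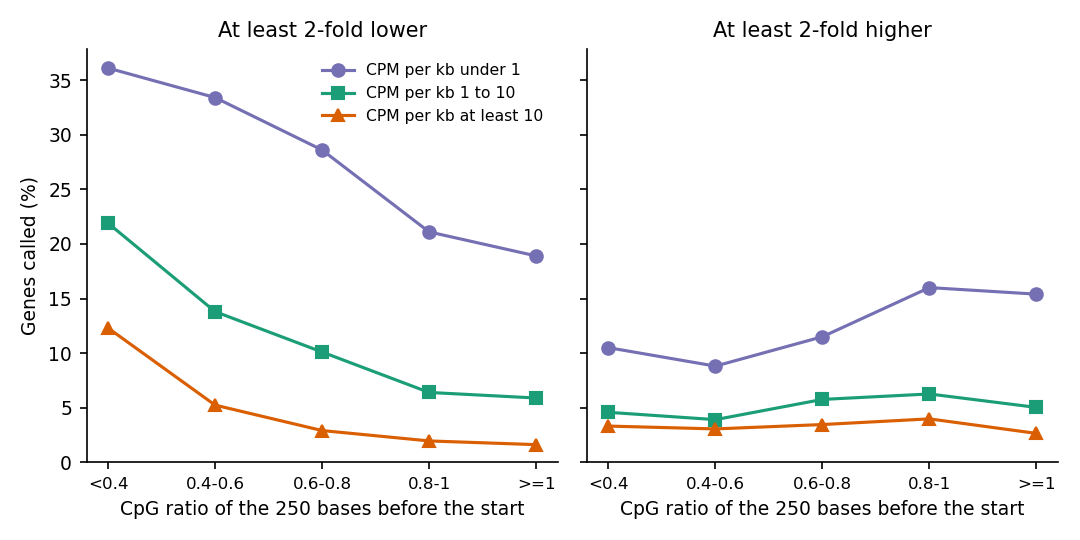
Share of genes called at least 2-fold lower (left) and higher (right), in percent, by the CpG ratio of the 250 bases before the start, with 1 line for each class of mean level in CPM per kilobase of exon. In all 3 level classes the left lines go down from the CpG-poorest to the CpG-richest promoters, from 36.1 to 18.9% at the lowest level and from 12.3 to 1.62% at the highest.

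Short sequence matches in the same windows, searched on both strands, were counted for 7 motifs as a description; the shares are given over all windows, then for genes at least 2-fold lower and at least 2-fold higher. The AP-1 letters TGANTCA stood in 4.13% of all windows, in 7.54% of genes at least 2-fold lower and in 3.12% of genes at least 2-fold higher. The TATA letters TATAAA stood in 5.71, 8.39 and 7.4%. The ETS letters CCGGAAGT, which contain a CG themselves, stood in 6.73, 1.42 and 3.25%, and in 11.4% of genes that held steady. The GC box GGGCGG, which also contains a CG, stood in 65.3, 50.6 and 70.5%, the CCAAT box CCAAT in 35.2, 27.6 and 35.5%, and the E-box CACGTG, again with a CG, in 8.72, 6.61 and 7.92%. The kappa-B site stood in 5.97, 6.26 and 4.29%. None of these motifs contains another. The shares also differed by level. Under 1 CPM per kilobase of exon, TATAAA stood in 8.37% of all windows and in 8.71% of genes at least 2-fold lower. At 1 or more these shares were 4.86 and 7.76%. For the AP-1 letters they were 6.08 and 8.46% under 1 CPM per kilobase, and 3.51 and 6.44% at 1 or more. For the ETS letters they were 1.86 and 1.14%, then 8.25 and 1.82%. A match does not show that a factor binds there.

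Long noncoding RNAs held some of the largest changes. NEAT1, the scaffold RNA of nuclear paraspeckles, was at 169, 158 and 158 CPM without treatment and at 1576, 1492 and 1595 with JQ-1, a log2 fold change of 3.26 ± 0.04 (adjusted p = 3.71e-25, edgeR), while the 15 other treated libraries lay between 136 and 217. MALAT1, its nuclear neighbour on chromosome 11, went from 1035 ± 237 to 3771 ± 214 CPM (SD, n = 3). UCA1, HTR7P1 and NDUFA6-AS1 rose 5.43-fold, 5.62-fold and 5.59-fold. LINC00704 went down from 13 ± 0.78 to 0.70 ± 0.10 CPM, and MYH16, a myosin pseudogene, from 6.25 ± 0.55 to 0.26 ± 0.19 CPM. PAPPA-AS1 fell from 143 ± 14.5 to 10.6 ± 0.42 CPM beside PAPPA itself, described next. Over all antisense RNAs the median was 0.17, with 18.5% of 411 at least 2-fold higher and 11.4% at least 2-fold lower, beside 6.81% and 12.9% of all genes. At any size, 31.6% of them were called higher, beside 35.7% of all genes. Of 316 intergenic long noncoding RNAs, 22.2% were at least 2-fold lower and 15.2% at least 2-fold higher, beside the same 12.9% and 6.81%. The counting is not stated to use strand, so reads of an antisense RNA and its partner cannot be told apart.

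In CPM, the 8 largest losses were in TNC, ALDH1A3, PAPPA, IL1B, HNRNPA1, MMP14, TMEM158 and HSP90AA1. TNC, the matrix glycoprotein tenascin C, fell from 2975 ± 186 to 1908 ± 39.7 CPM, and ALDH1A3, a retinaldehyde dehydrogenase, from 2086 ± 20.5 to 1130 ± 3.39 CPM (SD, n = 3). PAPPA, a metalloprotease that cleaves insulin-like growth factor binding proteins, was at 904, 781 and 686 CPM and dropped to 48.0, 46.9 and 49.5, a log2 fold change of -4.04 ± 0.10 (adjusted p = 4.32e-20, edgeR). TMEM158, a RAS-induced membrane protein, was at 676, 766 and 767 against 114, 113 and 112 CPM. MMP14, a membrane-bound collagenase, fell from 1478 ± 32.7 to 852 ± 4.6 CPM. IL1B, HNRNPA1 and HSP90AA1 fell at log2 fold changes of -1.87, -0.64 and -0.36. In all 8 genes every JQ-1 library lay below every untreated one. They were picked as called genes with the largest losses, and the share of all genes so separated was not counted, so this describes levels only.

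The 8 largest gains in CPM were in RNA28S5, VIM, ANXA2, EEF1A1, EEF2, MALAT1, GAPDH and HMGA1. VIM, the intermediate filament vimentin, rose from 7449 ± 342 to 12420 ± 109 CPM, and ANXA2, a membrane-binding annexin, from 1639 ± 81.5 to 5328 ± 59.9 CPM (log2 fold change 1.70 ± 0.04, adjusted p = 4.96e-21, edgeR). The elongation factors EEF2 and EEF1A1 rose 1.91-fold and 1.25-fold. GAPDH rose 1.69-fold and HMGA1, an AT-hook chromatin protein, 1.75-fold. RNA28S5, a ribosomal RNA, ran from 38980 to 74310 CPM without treatment and from 60390 to 88280 with JQ-1, so its groups overlapped. It was called higher (adjusted p = 0.0132, edgeR), but not without untreated replicate 2 (adjusted p = 0.064), untreated replicate 3 (0.112) or JQ-1 replicate 3 (0.0906). Summed, the genes at least 2-fold lower went from 45344 ± 454 to 15547 ± 23 CPM and those at least 2-fold higher from 21571 ± 464 to 59686 ± 196 CPM (SD, n = 3). These genes were picked by their change, so the sums describe size only.

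**Figure D3:**
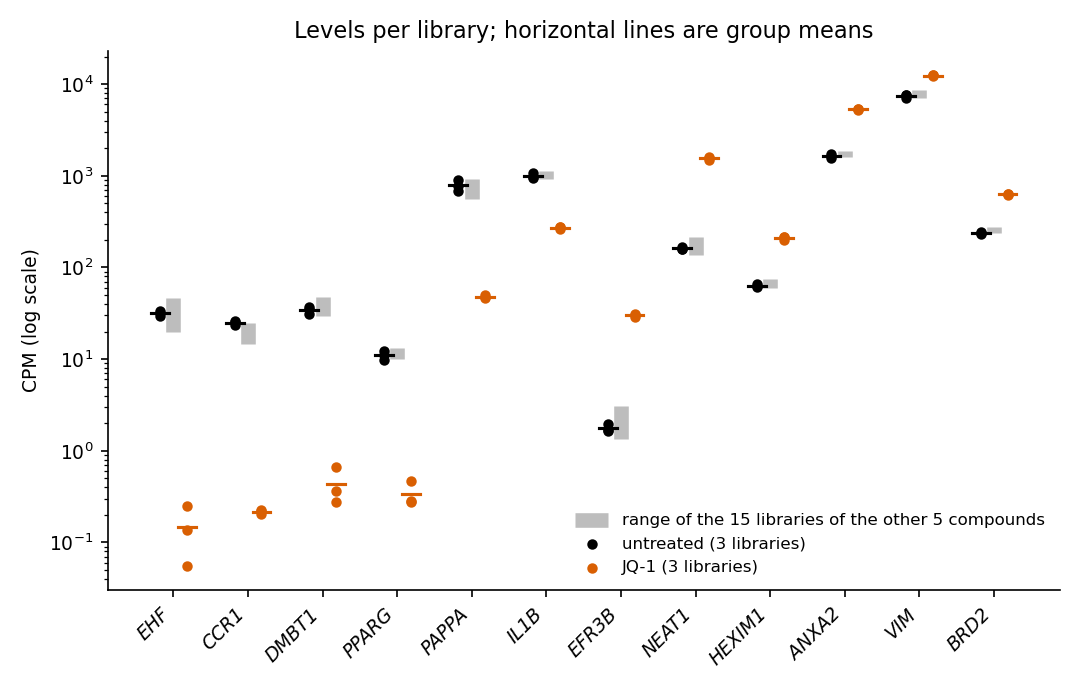
CPM (log scale) of 12 named genes in the 3 untreated (black) and the 3 JQ-1 libraries (orange), with lines at the group means; grey bars give the range of the 15 libraries of the other 5 compounds. EHF, CCR1, DMBT1 and PPARG drop below 1 CPM with JQ-1, and for all 12 genes the JQ-1 points lie outside the range of the other compounds.

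Against this movement, 2254 genes (15%) held steady, with a 95% interval of the fold change within 1.2-fold either way. The steady genes with the highest level per length included the ribosomal protein genes RPS3A, RPL29 and RPL6, the chaperone HSP90AB1, the integrin ITGB1, NPM1 of the nucleolus and the receptor kinase AXL. ITGB1 was at 2455 ± 69.7 CPM untreated and 2684 ± 17.4 with JQ-1, and AXL at 1847 ± 19.4 and 2050 ± 13.7 (SD, n = 3). Several of these small changes still passed the test, among them those of ITGB1 and AXL, and under total-count scaling ITGB1, RPL6 and NPM1 took the opposite sign. AXL lost its call with the GC trend removed (log2 fold change 0.02, adjusted p = 0.536, edgeR), while ITGB1 and NPM1 stood at 0.29 and 0.28, beyond 1.2-fold.

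How much a gene moved depended on its level. Genes were split by their mean level over the 6 libraries, per kilobase of merged exons (CPM per kb). Under 1 CPM per kb, 28.5% of 3924 genes fell at least 2-fold, and 12.5% did when no filter on low counts was applied. The share was 15.4% at 1 to 3, 6.64% at 3 to 10, 3.66% at 10 to 30, 2.93% at 30 to 100 and 1.74% of 345 genes at 100 CPM per kb or more. Rises of at least 2-fold were also most common in the lowest class, at 11.8%, and made up 5.22% of the highest. Rises of any size that passed the test went the other way, from 20.5% in the lowest class to 61.7% in the highest, where the median log2 fold change was 0.22. The scale matters for the highest class: 43.3% were called higher under total-count scaling. Genes of low level were measured less precisely, with a median SE of 0.291 on the log2 scale under 1 CPM per kb and 0.0467 at 100 or more, and a fall lowers a gene's own mean level. With the GC trend removed, 28.6% of the lowest class fell at least 2-fold and 59.1% of the highest rose.

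**Figure D4:**
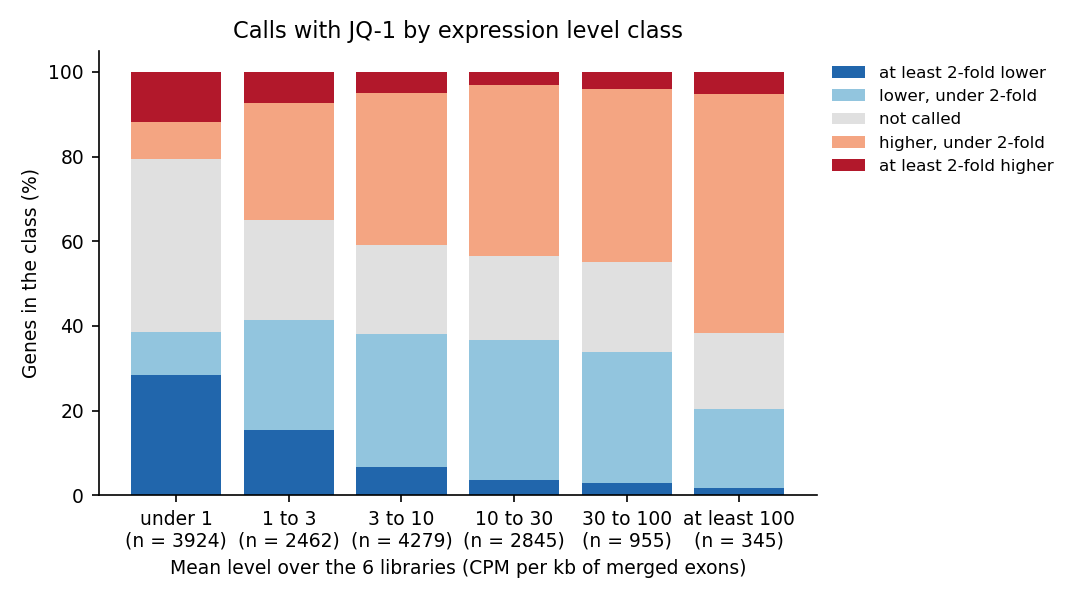
Percent of genes in each class of mean level (CPM per kilobase of merged exons, over the 6 libraries) by call and size of change with JQ-1. The dark blue share, called and at least 2-fold lower, shrinks from 28.5% under 1 CPM per kb to 1.74% at 100 or more, and the red and orange shares, called higher, grow from 20.5 to 61.7%.

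Gene structure followed the change more weakly. Of 2801 protein-coding genes that span over 100 kb, 17.9% fell at least 2-fold, against 11.4 to 11.6% in the 3 shorter classes. With the GC trend removed these shares were 16.6% against 11.4 to 13.1%. Of transcripts with at least 55% GC, 47.3% rose, and of those under 40% GC, 20.7% rose, but with the GC trend removed the shares were 38.1 and 37.6%. On chromosome 19, 44.1% of 1032 genes rose, and 37.5% once the GC trend was removed, beside 37% of all genes in that fit.

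Gene families were then ranked by their median, among those with at least 8 tested members. Their counts stand beside 37.6% of all genes called lower and 35.7% called higher. The 8 lowest medians belonged to families of cytokines, interferon-induced proteins, receptors, channels, keratins, serpins and laminins. Of 10 chemokine genes tested, 9 fell and 0 rose, with a median log2 fold change of -2.35 beside -0.01 for all genes. CXCL8, which draws neutrophils, was at 569, 550 and 610 CPM and dropped to 52.9, 54.8 and 53.2; CXCL1 and CXCL2 fell 10.8-fold and 8.61-fold. Without a filter on low counts, which adds members with few counts, the chemokine median was -0.39. Of 17 keratin genes, 12 fell and 2 rose (median -1.82), KRT80 from 200 ± 5.47 to 42.1 ± 1.25 CPM and KRT15 from 74.5 ± 4.86 to 17.3 ± 0.86 CPM (SD, n = 3). Without the filter 13 keratins fell, 2 rose and the median was 0. Of 28 guanylate-binding, IFI, IFIT and OAS-type interferon genes, 23 fell and 2 rose (median -1.66). GBP3 fell 5.33-fold, and IFI16, a DNA sensor, 2.53-fold.

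Channels, protease inhibitors and matrix chains followed, again beside 37.6% of all genes called lower and 35.7% higher. Of 19 calcium and sodium channel genes, 14 fell and 2 rose (median -1.23); the auxiliary subunits CACNA2D4 and CACNA2D1 fell 2.1-fold and 2.52-fold. Without the filter the medians were -0.41 for the channels and -0.72 for the toll-like receptor list. Of 18 serpins, 13 fell and 1 rose (median -1.14), among them SERPINB7, from 46.8 ± 4.29 to 12.6 ± 0.22 CPM, and SERPINH1, the collagen chaperone, from 85.1 ± 5.34 to 39.2 ± 0.33 CPM. Of 21 toll-like receptor, NLR and IRAK genes, 15 fell and 3 rose (median -1.13, or -1.02 with members at 0 counts in a group set to their bound); IRAK2 fell 3.51-fold and the inflammasome sensor NLRP3 fell 3.01-fold. Of 11 laminins, 8 fell and 3 rose (median -1.05), LAMB3 by 3.23-fold and LAMB1 by 1.4-fold. Of 45 interleukin and interleukin receptor genes, 31 fell and 5 rose (median -0.96), IL1A from 160 ± 7.12 to 18.2 ± 1.21 CPM and LIF from 405 ± 11.8 to 177 ± 1.41 CPM.

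**Figure D5:**
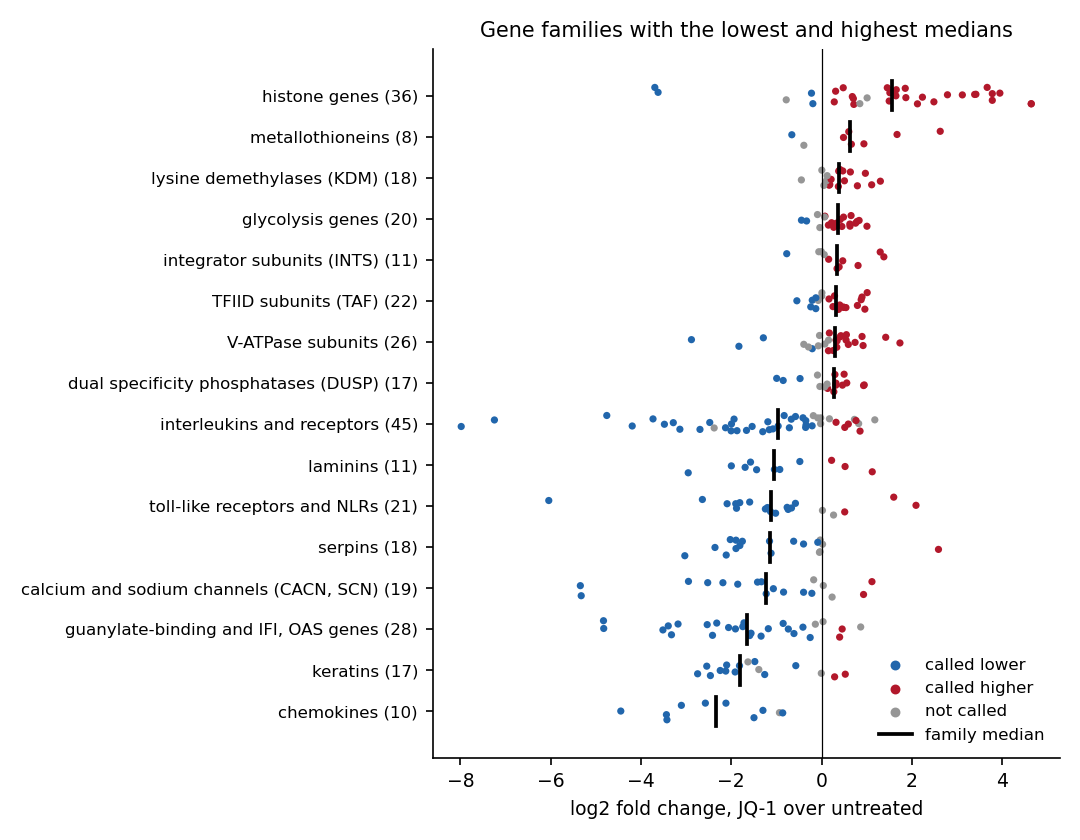
Log2 fold change, JQ-1 over untreated, of each tested member of the 8 families with the highest (top) and the 8 with the lowest median (bottom) among families with at least 8 tested members, whose number is in brackets; black bars are family medians and 6 members with no count in a group are not drawn. Chemokines lie wholly below 0, and most histone genes lie above it.

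The families with the highest medians moved less, apart from histone genes; 35.7% of all genes were called higher and 37.6% lower. Of 36 histone genes, 27 rose and 5 fell (median 1.57). The genes named HIST, whose transcripts normally lack a poly(A) tail, held 20 of the rises among 23 tested, with 0 falls. HIST2H2BE was at 2.08, 2.0 and 2.27 CPM against 32.6, 31.7 and 34.2 CPM. H1F0, the linker histone of resting cells, rose from 104 ± 1.8 to 376 ± 15.6 CPM. Most of these genes have a single exon, which was not shared by single-exon genes in general: 117 of 314 other single-exon genes rose and 100 fell. Near-identical histone copies share reads, so HIST2H4A and HIST2H4B, or HIST2H2AA3 and HIST2H2AA4, have the same values and count as 1 measurement each.

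The other families with high medians were of metal binding, transcription and metabolism, again beside 35.7% of all genes called higher and 37.6% lower. Of 8 metallothioneins, which bind zinc and copper, 6 rose and 1 fell (median 0.63), MT1X from 44.6 ± 4.49 to 276 ± 35.5 CPM. Counts were not whole in all 8, so reads were split between similar genes and single members are uncertain. Of 18 lysine demethylase genes, 13 rose and 0 fell (median 0.38), KDM1B by 2.47-fold and KDM3A by 1.73-fold. Of 20 glycolysis genes, 15 rose and 2 fell (median 0.37), with SLC2A1, the glucose transporter, at 1.78-fold and ALDOA at 1.73-fold. Of 11 Integrator subunits, which process small nuclear RNAs and end paused transcription, 7 rose and 1 fell (median 0.34), INTS5 from 19 ± 0.60 to 49.4 ± 1.06 CPM and INTS7 from 13.3 ± 0.92 to 32.7 ± 1.13 CPM. Of 22 TFIID-type subunits, 14 rose and 5 fell (median 0.33), TAF9 by 1.95-fold and TAF12 by 2.02-fold. Of 26 V-ATPase subunits 16 rose and 4 fell (median 0.29), and of 17 dual specificity phosphatases 10 rose and 3 fell (median 0.27), DUSP10 by 1.93-fold. These small medians depend on the scale: by total counts they were 0.23 for demethylases (10 higher, 0 lower), 0.23 for glycolysis (12 and 4), 0.20 for Integrator (6 and 2), 0.19 for TFIID (13 and 6), 0.15 for V-ATPase (12 and 7) and 0.13 for phosphatases (8 and 5). Of 82 cytosolic ribosomal protein genes, 53 rose and 3 fell (median 0.23), but 32 rose and 7 fell under total-count scaling.

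The targets of JQ-1 and the machinery they recruit changed by member and not as a block. Of 34 BET, P-TEFb and elongation genes tested, 16 rose and 8 fell, beside 35.7% and 37.6% of all genes, with a median of 0.05. Under total-count scaling 12 rose and 13 fell, and the median was -0.09. BRD2 was at 241, 235 and 233 CPM against 619, 636 and 632 CPM, a log2 fold change of 1.41 ± 0.03 (adjusted p = 3.64e-20, edgeR). BRD3 was at 1.14 times the untreated level, a change that did not pass with the GC trend removed (adjusted p = 0.236, edgeR). With the other treated libraries as the reference as well, BRD3 passed at a log2 fold change of 0.21 (adjusted p = 0.000201, edgeR). HEXIM1, the inhibitor of P-TEFb, was at 60.6, 65.9 and 63.4 CPM against 215, 201 and 213 CPM. Its companion LARP7 was at 41.2 ± 4.2 and 41.7 ± 3.48 CPM, and its paralogue HEXIM2 at 3.14 ± 0.46 and 2.96 ± 0.31 CPM, neither of which passed the test. Both passed with the GC trend removed (edgeR), LARP7 at a log2 fold change of 0.22 (adjusted p = 0.00674) and HEXIM2 at -0.29 (adjusted p = 0.0489); with the other treated libraries as the reference as well, HEXIM2 passed (adjusted p = 0.0277) and LARP7 did not (adjusted p = 0.545). MLLT3, a subunit of the super elongation complex, rose 1.66-fold, and EAF2, a partner of ELL, rose 2.01-fold from 1.38 ± 0.11 CPM. Among subunits of the pausing factor NELF, NELFCD fell from 90.2 ± 2.48 to 47.8 ± 1.04 CPM while NELFB rose 1.47-fold. In the PAF complex CTR9 and RTF1 rose 1.5-fold and 1.36-fold and PAF1 fell 1.32-fold.

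Some falls covered runs of neighbouring genes. A run was taken as at least 4 tested neighbours within 500 kb of each other that all moved at least 2-fold in 1 direction. The protocadherin clusters, which encode neuronal adhesion molecules on chromosome 5, held runs of 7, 6, 5, 5 and 5 lower genes. Of 17 beta-cluster genes 16 fell (94.1%, median -1.26), and of 22 gamma-cluster genes 19 fell (86.4%, median -1.71). Of 13 alpha-cluster genes 3 fell (23.1%), below the 37.6% of all genes called lower. The split was made after the values were seen. PCDHB16 was at 11.4, 11.3 and 11.7 CPM against 3.75, 3.69 and 4.74 CPM. Gamma-cluster genes share their last exons. Counts were not whole in 17 of 17 beta, 21 of 22 gamma and 13 of 13 alpha genes. Reads were thus split among genes in all 3 clusters, and single genes, PCDHB16 among them, are uncertain. The median SE on the log2 scale was 0.479 in the alpha, 0.439 in the gamma and 0.22 in the beta cluster. The guanylate-binding cluster on chromosome 1 (GBP3, GBP1, GBP2, GBP4 and GBP5) fell as a run of 5, by log2 fold changes of -1.56 to -4.83. A run of 5 on chromosome 14 held SERPINA6, SERPINA1, SERPINA5, SERPINA3 and the homeobox gene GSC. Runs of 4 included KRT80, KRT7, KRT86 and KRT81 on chromosome 12, SAA4, SAA2 and SAA1 with MRGPRX4 on chromosome 11, and CCR1, CCRL2, LTF and RTP3 on chromosome 3.

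Runs of higher genes were fewer. The HIST2 cluster on chromosome 1 held 8, between 149782689 and 149887364 on GRCh38, with log2 fold changes of 1.46 to 4.65. HIST2H4A and HIST2H4B count as 1 measurement, as do HIST2H2AA3 and HIST2H2AA4, so this run holds fewer than 8 separate measurements. A run of 4 on chromosome 22 held DGCR6, PRODH, DGCR2 and DGCR11, of which DGCR2 went from 50.2 ± 1.15 to 124 ± 3.57 CPM. A run of 4 on chromosome 4 held TMEM175, DGKQ, SLC26A1 and IDUA, of which TMEM175, a lysosomal potassium channel, went from 3.3 ± 0.81 to 11.7 ± 0.62 CPM. SLC26A1 and IDUA overlap, so their reads cannot be told apart.

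HOX genes, which mark position along the body axis, fell across their clusters: 30 of 35 fell and 1 rose, beside 37.6% and 35.7% of all genes, with a median of -0.91. By cluster, 8 of 10 HOXA, 9 of 9 HOXB, 6 of 8 HOXC and 7 of 8 HOXD genes fell. Their changes were moderate, with 15 of the 35 at least 2-fold lower and 1 at least 8-fold lower.

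Lineage markers were read against lists of melanocyte, dedifferentiated melanoma and other cell type genes. The pigment genes PMEL, MLANA and TYRP1 stayed under 0.5 CPM in every untreated and JQ-1 library, whereas AXL and TNC, listed as markers of dedifferentiated melanoma, stood at 1847 and 2975 CPM in the untreated cells. SOX10, a neural crest factor, rose from 362 ± 11.4 to 595 ± 7.16 CPM, MITF from 12.8 ± 0.53 to 18.8 ± 0.26 CPM and NGFR, a neural crest receptor, from 117 ± 4.96 to 303 ± 3.58 CPM. SOX9 fell from 38.6 ± 1.67 to 20.8 ± 0.81 CPM. Of 6 myeloid, 4 endothelial, 4 T cell and 3 B cell markers listed, 3, 3, 0 and 1 were tested; apart from CD68, at 136 ± 9.16 and 156 ± 3.09 CPM, each was under 1 CPM in all 6 libraries. Of 6 fibroblast markers 3 were tested: LUM fell from 5.05 ± 0.81 to 1.08 ± 0.17 CPM, COL1A1 rose from 4.06 ± 0.22 to 5.31 ± 0.44 CPM, and PDGFRA, under 0.4 CPM in all 6 libraries, did not pass. Of 6 epithelial markers 3 were tested: KRT8 rose from 13.5 ± 1.31 to 19.3 ± 0.65 CPM, KRT18 rose from 49.3 ± 1.8 to 60.3 ± 1.56 CPM, and KRT14 did not pass. Their part in the results was not tested.

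The largest changes were also set beside the levels with the other compounds. Of the 289 genes at least 8-fold lower, 261 (90.3%) had all 15 other treated libraries above all 3 JQ-1 libraries, and of the 42 at least 8-fold higher, 38 had all 15 below. These genes were picked by the size of their change with JQ-1, and the share over all genes tested was not counted. The comparisons with untreated cells and with the other treated cells share the JQ-1 libraries, so these counts describe the levels and are no independent test.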

How the data were processed

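Bulk RNA of 21 SK-MEL-147 libraries in 7 groups was deposited as 1 table of expected counts per gene, which the authors made with RSEM 1.2.15 and Bowtie2 2.1.0 on hg38, per the submitters' processing notes. The annotation, and whether counting used strand, is not given in the sources used here. Columns were matched to samples by their labels, and 0 columns were left unused. Counts were rounded, and of 26475 genes 15062 passed filterByExpr (minimum count 10, minimum total 15). They were fitted with edgeR 4.0.16 (limma 3.58.1, R 4.3.3) by the quasi-likelihood test over all 21 libraries with TMM scaling, and adjusted by Benjamini-Hochberg over all genes tested; a call is an adjusted p under 0.05. Expected counts share reads between similar genes, so genes with near-identical copies are uncertain. CPM values and SDs use TMM library sizes. The GC trend was a loess (span 0.3) of log2 CPM on transcript GC from GENCODE 29; 23900 symbols matched by name and 1831 by an older name. Promoter windows came from RefSeq.

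Genes were named by rule: the largest falls and rises of at least 3 CPM, near-silent and switched-on genes, the largest losses and gains of CPM, steady genes, examples from the 8 highest and the 8 lowest families, noncoding RNAs, BET and elongation genes and the longest runs, 168 in all. The largest falls and rises, also those of noncoding RNAs, were taken only from genes whose untreated and JQ-1 libraries did not overlap. The members and lists were chosen with earlier results of these data known. The replicate numbers did not pair the samples: the correlations of same-numbered deviations were -0.025, -0.029 and 0.008. No replicates were duplicates (chi-square per degree of freedom 5.31 to 56.5). DESeq2 1.42.0, other scalings, filters, references and left-out libraries were the alternatives. The fitting script was tested on simulated data.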

Additional observations from a re-analysis of the deposited data

How the results depend on the processing

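DESeq2 and RLE scaling kept the direction and call of every named gene. Total-count scaling gave 31.4% of genes under 1 CPM per kb at least 2-fold lower and 43.3% of those at 100 or more higher, and turned ITGB1 (-0.015), RPL6 (-0.034), NPM1 (-0.003), MLLT1 (-0.116) and SUPT4H1 (-0.138, log2). Without a filter on low counts, 3987 genes were steady and 12.5% of the lowest level class was at least 2-fold lower, over more genes tested. A 1.5-fold threshold test called 1638 genes higher and 2424 lower, and a 1.5-fold interval made 6649 steady. Level cutoffs of 3 and 0.3 CPM left 2 genes switched on, and classes by CPM gave 47.7% higher in the highest class. With the other 5 treated groups as the reference 0 genes were switched on, and TNFAIP8L2-SCNM1 (-0.338), LUZP6 (0.082), RPL29 (-0.110), CCNT1 (0.004), EAF1 (0.082), MLLT1 (-0.135) and CDC73 (0.049) turned. With the GC trend removed LUZP6 (0.126), MLLT1 (-0.217), NELFA (-0.132) and CDC73 (0.054) turned; with both, 0 genes were switched on and TNFAIP8L2-SCNM1 (-0.337), LUZP6 (0.148), CCNT1 (0.032), EAF1 (0.079), MLLT1 (-0.134) and CDC73 (0.088) turned. The cause was not tested.

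Leaving out each library in turn gave 5154 to 5273 genes higher, 5391 to 5535 lower, 1023 to 1081 and 1904 to 1969 at least 2-fold higher and lower, 25 to 35 near silence and 1958 to 2152 steady. It gave 5 to 9 switched on, with 9 without untreated replicate 1. The share at least 2-fold lower under 1 CPM per kb was 25.7 to 28.6%, and the share higher at 100 or more was 56.1 to 65.1%. SERF1A lost its call without untreated replicate 2 (adjusted p = 0.133, edgeR). With the replicate number as a block, 5358 genes were called higher and 5642 lower, and 1 named gene, PCDHGA2, lost its call. Under 1 CPM per kb the median SE was 0.291 on the log2 scale, and the part of depth in it was not tested.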
